A study of Homo sapiens with 6 samples.

Results

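MicroRNA host genes are genes whose long RNA carries one or more microRNA hairpins, and 61 of the 60611 genes in the deposited count table have a symbol of that kind, written as MIR, a number or name, and HG. The members were chosen by that symbol alone, with no measured value. RNA was measured by sequencing in EndoC-BH5, an established line of human beta cells that is labelled wild type. The libraries fall into 2 groups, 3 of cells given interferon gamma together with interleukin 1b (cytokine) and 3 of cells given vehicle. Neither the dose nor the length of exposure is stated in the labels. All libraries come from 1 line, each group is described as 3 batches with no word on whether they were grown apart, and the p-values therefore speak of variation among these libraries, which may be technical.

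A microRNA begins as part of a long primary transcript, often a non-coding host RNA. In the nucleus the enzyme DROSHA and its partner DGCR8 cut out a hairpin, XPO5 carries it to the cytoplasm, DICER1 trims it, and an Argonaute protein keeps one strand, which finds target messages mainly through its seed, bases 2 to 8 of the mature RNA. In islets miR-7 is known as a microRNA of endocrine cells, and miR-155 and miR-146a are known from immune cells as products of genes that inflammatory signals switch on. The level of a host RNA is not the level of its mature microRNA, and mature microRNAs were not measured here.

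The mature microRNAs of the hosts on which the results turn are printed 5′ to 3′, from RefSeq on GRCh38.p14, with the seed in capitals. The first 4 are shown because they share one seed, GAGGUAG, although they come from different host genes. The tested ones are MIRLET7A1HG on chromosome 9 and MIRLET7BHG on chromosome 22. MIR100HG on chromosome 11, which was not tested, also holds a let-7a hairpin, let-7a-2.
hsa-let-7a-5p: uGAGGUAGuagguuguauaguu
hsa-let-7f-5p: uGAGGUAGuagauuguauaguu
hsa-let-7d-5p: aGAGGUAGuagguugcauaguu
hsa-let-7b-5p: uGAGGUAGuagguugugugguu
The next 3 belong to MIR762HG, MIR22HG and MIR7-3HG, which were higher in cytokine libraries.
hsa-miR-762: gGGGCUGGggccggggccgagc
hsa-miR-22-3p: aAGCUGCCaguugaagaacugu
hsa-miR-7-5p: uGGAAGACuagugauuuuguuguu
The following 3 belong to MIR1915HG, MIR600HG and MIR210HG, the hosts with the largest falls.
hsa-miR-1915-3p: cCCCAGGGcgacgcggcggg
hsa-miR-600: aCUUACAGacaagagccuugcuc
hsa-miR-210-3p: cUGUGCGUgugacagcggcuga
The next 4 are shown as pairs from MIR17HG with a shared seed, AAAGUGC in miR-17-5p and miR-20a-5p and GUGCAAA in miR-19a-3p and miR-19b-3p; the other strands miR-19a-5p and miR-19b-1-5p also share one, GUUUUGC.
hsa-miR-17-5p: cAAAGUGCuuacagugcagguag
hsa-miR-20a-5p: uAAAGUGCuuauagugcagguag
hsa-miR-19a-3p: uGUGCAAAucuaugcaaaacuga
hsa-miR-19b-3p: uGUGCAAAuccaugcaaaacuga
The last pair comes from hosts known for their response to inflammatory signals, MIR3142HG, which holds miR-146a, and MIR155HG.
hsa-miR-146a-5p: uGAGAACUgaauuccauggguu
hsa-miR-155-5p: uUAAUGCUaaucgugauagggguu

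Total counts were 13689972 to 16175364 in cytokine libraries and 5871481 to 15894082 in vehicle libraries, so low levels rest on small counts, above all in vehicle library 1, where 1 count is worth 0.159 CPM. Levels are given in CPM, counts scaled to library size and, by TMM, to composition. Known beta-cell genes were detected in every library, 7 of 7 markers, with a summed level of 12059 to 12660 CPM in cytokine and 8651 to 9304 CPM in vehicle libraries. That sum is mostly INS and IAPP, and IAPP averaged 8238 CPM in cytokine and 3997 CPM in vehicle libraries. Of the 7 markers, 5 were called lower in cytokine libraries (INS, PDX1, MAFA, SLC30A8 and G6PC2, with log2 changes of −0.14, −0.53, −1.89, −1.11 and −2.67) and IAPP and NKX6-1 were called higher. The 2 delta-cell markers, mostly SST, summed to 561 to 599 CPM in cytokine and 532 to 600 CPM in vehicle libraries. The 2 ductal markers, mostly KRT19, summed to 130 to 139 CPM in cytokine and 150 to 168 CPM in vehicle libraries. The 3 alpha-cell markers summed to 58.2 to 68.3 CPM in cytokine and 68.2 to 70.8 CPM in vehicle libraries. What these markers contribute to any result below was not tested. The 7 leukocyte markers summed to 3.06 to 3.54 CPM in cytokine and 3.97 to 4.33 CPM in vehicle libraries, most of it CD14 and AIF1. PTPRC, the general leukocyte marker, had 3, 1 and 1 counts in cytokine and 1, 0 and 4 counts in vehicle libraries. The 2 fibroblast markers summed to 0.393 to 0.799 CPM in cytokine and 0 to 0.409 CPM in vehicle libraries, and their part in any result below was not tested. In bulk RNA, fewer cells of a type and less RNA per cell cannot be told apart.

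Of the 61 host genes, 53 had a count above 0 in at least 1 library, 34 had at least 10 counts over the 6 libraries together, and 21 passed the filter on low counts and were tested. The 40 that were not tested had at most 18 counts in any library, and 8 of them were at 0 in all 6. Above 0 in cytokine libraries only were 5 hosts, and in vehicle libraries only 3, all with under 10 counts. The same count was not made over all genes, so these 2 numbers have no background. Vehicle libraries 1 and 2 also had fewer total counts than any cytokine library. Members together reached 227 to 242 CPM in cytokine libraries and 213 to 219 CPM in vehicle libraries. MIR7-3HG alone supplied 38.7%, 39.9% and 40.2% of the members' counts in the 3 cytokine libraries and 39.1%, 41.0% and 37.3% in the 3 vehicle libraries. MIR22HG supplied 15.9%, 15.8% and 16.1% in cytokine against 10.9%, 10.9% and 11.8% in vehicle libraries. These shares are of counts and are not corrected for transcript length.

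Among the 21 tested hosts, 6 were higher and 6 lower in cytokine libraries by edgeR's quasi-likelihood test at a Benjamini-Hochberg adjusted p under 0.05, adjusted over all 17863 tested genes. The background is large, since 28.3% of all tested genes were called higher and 28.8% lower, 57.1% in either direction, and the 6 higher and 6 lower of 21 hosts are close to those shares. With a change of at least 1.5-fold as well, 4 hosts were higher and 6 lower, against 11.1% and 11.3% of all tested genes. The libraries of the 2 groups did not overlap for 14 of the 21 hosts, and they did not overlap for 61% of all tested genes. The median log2 change (cytokine over vehicle) was 0.02 for the hosts and −0.02 for all tested genes. Scaling by library size alone moved the median of all genes to −0.22 and gave 4 hosts higher and 7 lower, beside 2980 genes higher and 8791 lower in all.

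**Figure D1:**
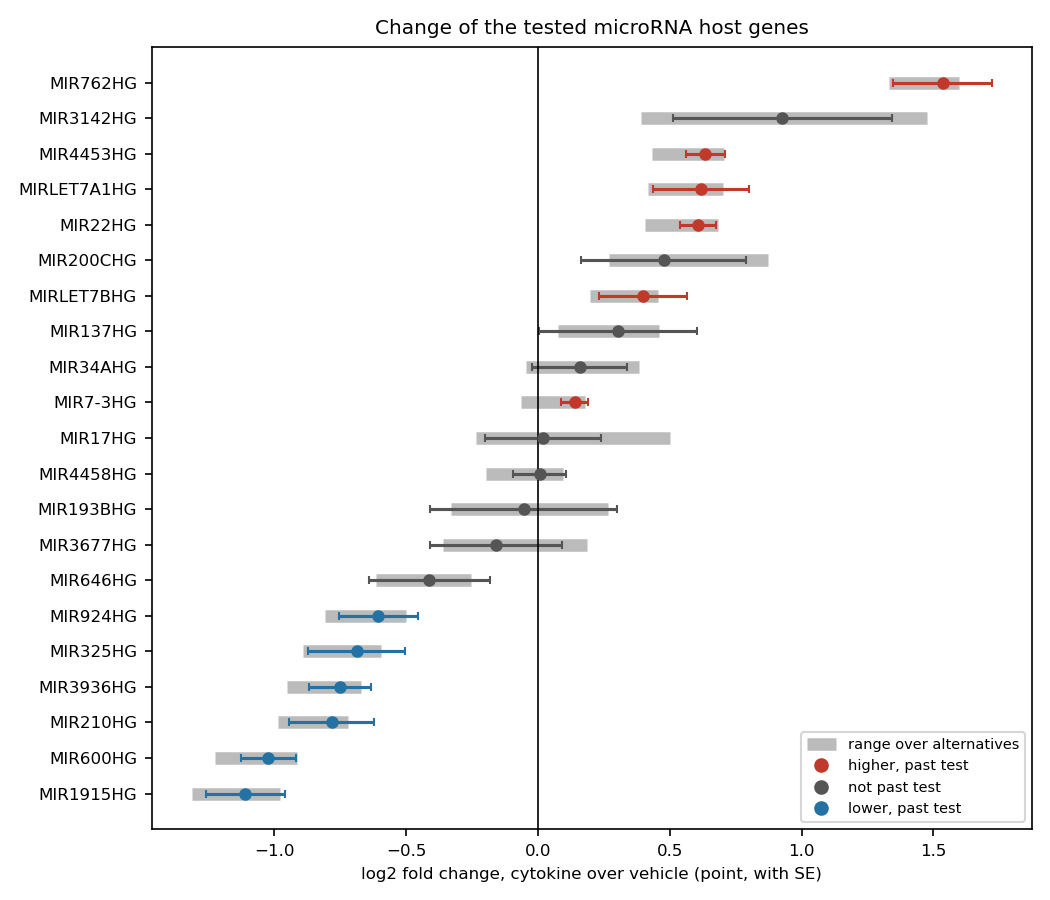
Log2 change, cytokine over vehicle, of the 21 tested microRNA host genes (points, with standard error), over the range of values from 14 alternative analyses (grey bars; 13 for MIR3142HG). Of the 21, 6 lie above 0 past the test, 6 below 0 past the test, and 9 did not pass; the grey bar crosses 0 for MIR7-3HG among the called hosts and for 5 of those not called.

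MIR762HG was the tested host with the largest change. It lies on chr16:30875222-30895220 (+, GRCh38, GENCODE 29), holds miR-762 in an intron, and runs antisense across BCL7C, a subunit gene of the SWI/SNF chromatin remodelling complex. Its level was 5.26, 4.72 and 4.49 CPM in cytokine libraries, from 79, 60 and 62 counts, against 1.43, 1.75 and 1.70 CPM in vehicle libraries, from 9, 19 and 29 counts. All 3 cytokine libraries lay above all 3 vehicle libraries. The log2 change was 1.54 (SE 0.187, edgeR adjusted p = 5.41e-08), and over the alternatives it stayed between 1.33 and 1.6 with an adjusted p of 8.42e-13 to 3.51e-05. BCL7C, on the opposite strand with overlapping exons, averaged 9.51 CPM in cytokine and 15.1 CPM in vehicle libraries, a log2 change of −0.64 (edgeR adjusted p = 1.61e-06). Whether the counting used strand is not stated in the sources, so reads of the pair cannot be told apart with certainty. The levels of the 2 genes moved in opposite directions, and what shared reads contribute to either change was not tested.

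MIR22HG, the host of the broadly expressed miR-22, rose. The gene lies on chr17:1711493-1717174 (−), with miR-22 in an exon. It had 37.0, 35.7 and 38.9 CPM in cytokine libraries against 23.3, 23.1 and 25.9 CPM in vehicle libraries, with every cytokine library above every vehicle library. The mean was 37.2 ± 1.61 CPM in cytokine and 24.1 ± 1.51 CPM in vehicle libraries (SD, n = 3 each), a log2 change of 0.61 (SE 0.0696, edgeR adjusted p = 1.84e-08, and 2.09e-15 to 0.781 over the alternatives). The call was lost only when the test asked for a change beyond 1.5-fold, since its estimated change of 1.52-fold lies at that bound.

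MIR4453HG, a host with 1 exon on chr4:152536264-152539263 (+) that includes the miR-4453 hairpin, moved by about as much. Its level was 31.8, 30.1 and 30.3 CPM in cytokine libraries and 18.3, 19.3 and 20.9 CPM in vehicle libraries. The groups did not overlap, and the log2 change was 0.64 (SE 0.0730, edgeR adjusted p = 1.88e-08, and 1.12e-14 to 0.512 over the alternatives). This call too was lost only against a 1.5-fold bound.

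The let-7 hosts carry members of a microRNA family known for holding back growth and developmental programmes. MIRLET7A1HG had 3.86, 3.22 and 3.91 CPM in cytokine libraries against 2.38, 2.48 and 2.34 CPM in vehicle libraries, without overlap. Its log2 change was 0.62 (SE 0.182, edgeR adjusted p = 0.00475, and 0.00357 to 0.893 over the alternatives), and it was lost with DESeq2 (adjusted p = 0.103) and against a 1.5-fold bound. The row's GENCODE 29 entry, chr9:94176458-94177892 (+), holds no hairpin of its own, while the longer RefSeq span of the gene holds those of let-7a-1, let-7f-1 and let-7d. MIRLET7BHG on chr22:46053869-46113928 (+), which holds let-7a-3 and let-7b, had 3.93, 3.85 and 4.71 CPM in cytokine libraries against 3.33, 3.31 and 2.98 CPM in vehicle libraries. These groups did not overlap either, but the log2 change of 0.40 (SE 0.167) passed narrowly, with an edgeR adjusted p of 0.0436. It did not pass without cytokine library 3 (adjusted p = 0.165), without vehicle library 1 (0.0509) or without vehicle library 3 (0.202), nor with DESeq2 (0.285), library size alone (0.316) or no filter on low counts (0.0931), and its adjusted p ran from 0.0381 to 1 over the alternatives. PRR34, which lies opposite MIRLET7BHG with overlapping exons, averaged 0.673 CPM in cytokine and 1.65 CPM in vehicle libraries and was called lower. PRR34-AS1 shares exon sequence with MIRLET7BHG on the same strand, so reads of the pair may be split uncertainly. It averaged 1.22 CPM in cytokine and 0.794 CPM in vehicle libraries and did not pass (log2 change 0.44, edgeR adjusted p = 0.245).

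MIR7-3HG, on chr19:4769140-4772533 (+) with the miR-7-3 hairpin in an intron, is one of the hosts that give rise to miR-7. It stood at 89.8, 90.2 and 97.2 CPM in cytokine libraries against 83.7, 87.1 and 81.4 CPM in vehicle libraries. The lowest cytokine library was above the highest vehicle library by a small margin. The log2 change was 0.14 (SE 0.0505, edgeR adjusted p = 0.0204, and 0.00979 to 1 over the alternatives), and scaling by library size alone turned it to −0.06. The call was also lost with DESeq2 (log2 change 0.16, adjusted p = 0.0516), without cytokine library 3 (log2 change 0.11, adjusted p = 0.0612) and without vehicle library 3 (0.11, adjusted p = 0.14).

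**Figure D2:**
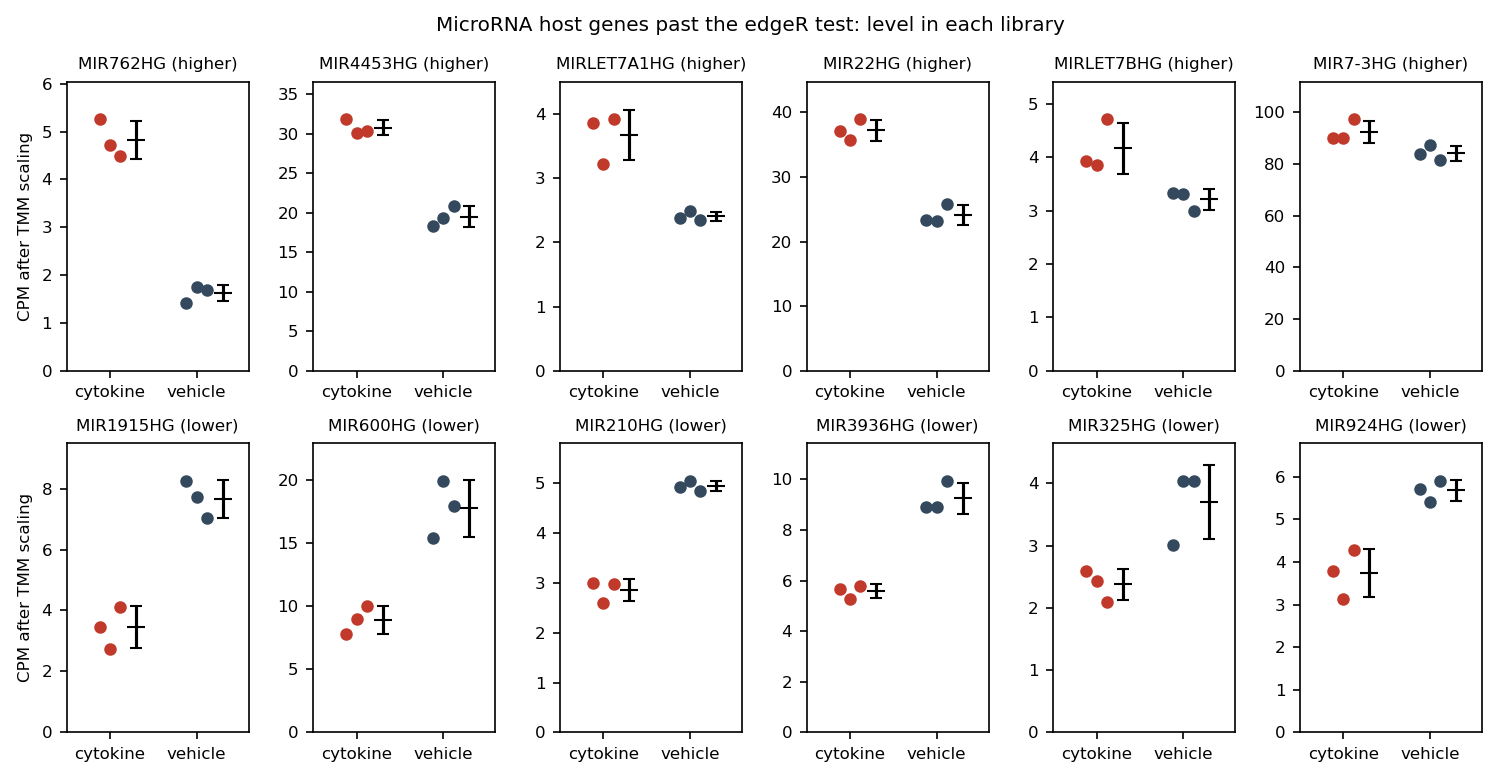
Level in CPM after TMM scaling of the 12 host genes past the edgeR test, 1 point per library, cytokine left and vehicle right, with the mean and SD of each group (n = 3 each); each panel has its own axis from 0. In all 12 panels the cytokine points lie wholly above or wholly below the vehicle points, widest for MIR762HG (4.82 against 1.62 CPM on average) and narrowest for MIR7-3HG (92.4 against 84.0 CPM), whose direction turns with library size alone.

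Of the hosts that fell, MIR1915HG and MIR600HG stood lowest relative to their vehicle level, by 2.16-fold and 2.03-fold. MIR1915HG, on chr10:21492658-21497262 (−), is entered in GENCODE 29 as the protein-coding gene CASC10. It had 3.46, 2.75 and 4.13 CPM in cytokine libraries against 8.26, 7.72 and 7.02 CPM in vehicle libraries, with no overlap. Its log2 change was −1.11 (SE 0.149, edgeR adjusted p = 3.16e-07, and 9.64e-12 to 0.00165 over the alternatives). MIR600HG lies on chr9:123109494-123115477 (−) inside STRBP, which encodes an RNA-binding protein of the spermatid and is read on the same strand. It had 7.79, 8.96 and 9.995 CPM in cytokine libraries against 15.4, 19.9 and 17.9 CPM in vehicle libraries, again without overlap. The log2 change was −1.02 (SE 0.105, edgeR adjusted p = 2.14e-09, and 1.19e-21 to 0.000308 over the alternatives). STRBP shares exon sequence with it and averaged 36.4 CPM in cytokine and 40.9 CPM in vehicle libraries, a log2 change of −0.18 (edgeR adjusted p = 0.016), so reads of the 2 genes may be split uncertainly. MIR762HG, MIR1915HG and MIR600HG were the 3 hosts whose call held in all 14 alternatives.

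MIR210HG, whose microRNA is best known as a target of the hypoxia response, lies on chr11:565660-568457 (−). It had 2.99, 2.59 and 2.97 CPM in cytokine libraries against 4.92, 5.05 and 4.86 CPM in vehicle libraries, and the groups were far apart relative to the spread within each. The log2 change was −0.78 (SE 0.160, edgeR adjusted p = 0.000128, and 5.54e-06 to 0.247 over the alternatives). MIR3936HG, on chr5:132311285-132369916 (−), had 5.66, 5.27 and 5.79 CPM in cytokine libraries against 8.89, 8.91 and 9.94 CPM in vehicle libraries. It too showed no overlap, with a log2 change of −0.75 (SE 0.119, edgeR adjusted p = 4.14e-06, and 9.54e-08 to 0.173 over the alternatives). On the opposite strand it overlaps exons of SLC22A4 and SLC22A5, carriers of ergothioneine and carnitine, both called higher, with log2 changes of 0.64 and 0.28.

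MIR325HG and MIR924HG are long host genes with their hairpins in introns, on chrX:76657798-77014532 (−) and chr18:39206924-39800318 (−). MIR325HG had 2.60, 2.44 and 2.1 CPM in cytokine libraries against 3.02, 4.04 and 4.04 CPM in vehicle libraries. No cytokine library reached the lowest vehicle library, and the log2 change was −0.69 (SE 0.183, edgeR adjusted p = 0.0021, and 0.00013 to 0.587 over the alternatives). MIR924HG had 3.79, 3.14 and 4.27 CPM in cytokine libraries against 5.72, 5.42 and 5.91 CPM in vehicle libraries. It also fell without overlap, by 0.60 on the log2 scale (SE 0.150, edgeR adjusted p = 0.00111, and 4.01e-05 to 0.936 over the alternatives). Both calls were lost with DESeq2, at adjusted p = 0.0966 for MIR325HG and 0.0545 for MIR924HG, and against a 1.5-fold bound.

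**Figure D3:**
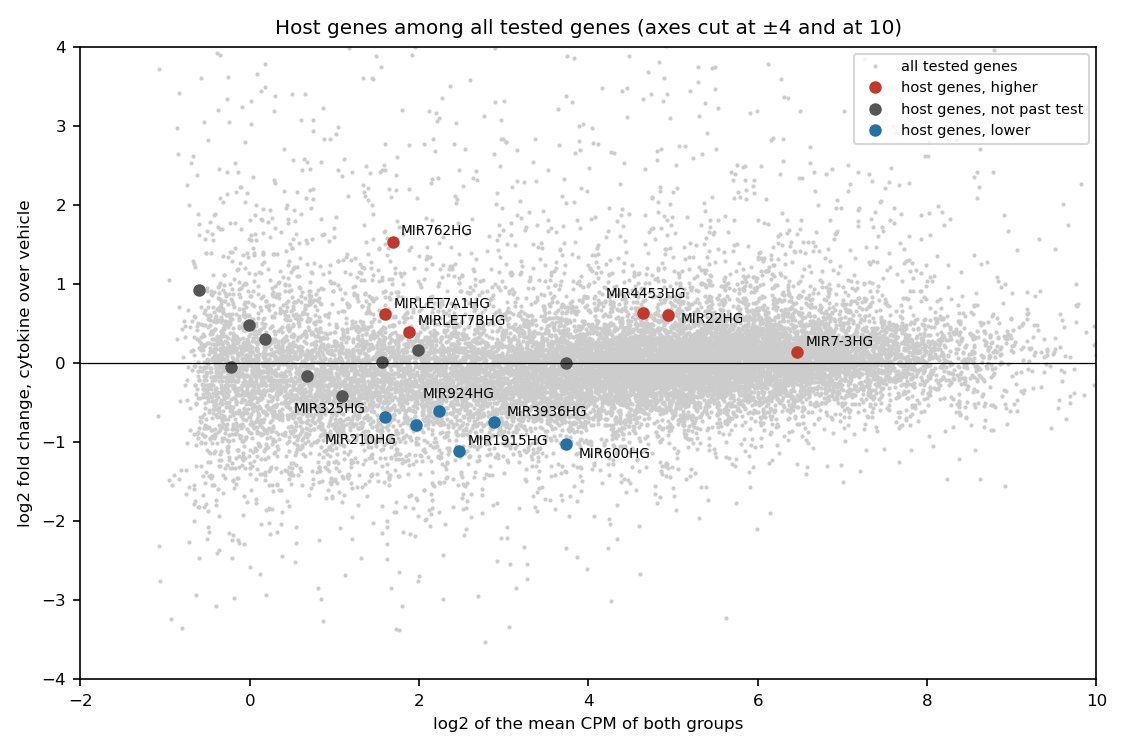
Log2 change, cytokine over vehicle, against the log2 of the mean CPM of both groups for all tested genes (grey; 215 lie outside the axes) and the 21 tested host genes (coloured by call, called hosts named). The hosts sit on both sides of 0 with a median log2 change of 0.02, against −0.02 for all 17863 tested genes.

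MIR17HG, the host of the miR-17-92 cluster that MYC is known to switch on, did not pass the test. Its estimated counts were 40.25, 46 and 40.67 in cytokine libraries and 18.33, 19.33 and 66.83 in vehicle libraries, or 2.66, 3.62 and 2.97 CPM against 2.86, 1.75 and 3.92 CPM. The vehicle libraries held both the lowest and the highest level, so the spread within vehicle was wider than the difference between groups. The log2 change was 0.02 (SE 0.221, edgeR adjusted p = 0.949, and 0.123 to 1 over the alternatives), and it was negative without cytokine library 2 (−0.10), without vehicle library 2 (−0.23) and with library size alone (−0.18).

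MIR3142HG, on chr5:160438594-160487426 (+), holds miR-146a and miR-3142. It had 13, 9.5 and 11.5 counts in cytokine libraries and 3, 8 and 4 counts in vehicle libraries, or 0.865, 0.786 and 0.869 CPM against 0.476, 0.735 and 0.234 CPM. The groups did not overlap, but the highest vehicle library came close to the lowest cytokine library. The log2 change of 0.93 (SE 0.413) narrowly missed the threshold, at an edgeR adjusted p of 0.0573. Without vehicle library 2 it was 1.47 and passed (adjusted p = 0.0147), without vehicle library 3 it was 0.39 (adjusted p = 0.525), and over the alternatives the adjusted p ran from 0.0147 to 0.525.

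The other 7 hosts that did not pass were MIR200CHG, MIR137HG, MIR34AHG, MIR4458HG, MIR193BHG, MIR3677HG and MIR646HG. MIR200CHG, host of the epithelial microRNAs miR-200c and miR-141, averaged 1.18 ± 0.104 CPM in cytokine and 0.799 ± 0.251 CPM in vehicle libraries (SD, n = 3 each), without overlap, with an edgeR adjusted p of 0.215. MIR34AHG, host of the p53 target miR-34a, averaged 4.21 ± 0.903 CPM in cytokine and 3.71 ± 0.729 CPM in vehicle libraries, with overlap and an edgeR adjusted p of 0.474. MIR646HG averaged 1.75 ± 0.169 CPM in cytokine and 2.50 ± 0.741 CPM in vehicle libraries, with vehicle library 1 well above all others at 3.33 CPM, and its edgeR adjusted p was 0.128. With library size alone MIR646HG was called lower (log2 change −0.61, adjusted p = 0.0214). MIR137HG, host of the neuronal microRNA miR-137, shares a strand and exon sequence with DPYD, an enzyme of pyrimidine breakdown that was called higher with a log2 change of 1.01. MIR137HG itself averaged 1.22 ± 0.262 CPM in cytokine and 1.04 ± 0.197 CPM in vehicle libraries (edgeR adjusted p = 0.417). MIR4458HG averaged 13.1 ± 0.439 CPM in cytokine and 13.4 ± 2.21 CPM in vehicle libraries (edgeR adjusted p = 0.96). MIR193BHG and MIR3677HG had log2 changes of −0.05 (SE 0.355) and −0.16 (SE 0.251). A p that misses the threshold does not show that a host was the same in both groups, and the standard errors give the size of change that could have been missed.

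Of the hosts that were not tested, MIR155HG was at 0 in all 6 libraries. A count of 0 allows up to 3 counts, or 0.200 to 0.236 CPM in a cytokine library and 0.175 to 0.476 CPM in a vehicle library, so the transcript was not detectable at this depth in either group; such limits cover counting error only. The other 7 at 0 throughout were MIR223HG, host of a myeloid microRNA, MIR181A2HG, MIR124-2HG, MIR3663HG, MIR4422HG, MIR4713HG and MIR5689HG. The row of the MIR155 precursor, which lies in an exon of MIR155HG, was at 0 in all 6 libraries as well.

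Below the filter, 13 hosts still had at least 10 counts in all. MIR100HG, which holds miR-100, let-7a-2 and miR-125b-1, had 18, 17.5 and 8 counts in cytokine libraries and 3, 0 and 9.5 counts in vehicle libraries. MIR4435-2HG had 8.5, 9.5 and 7.5 counts in cytokine libraries and 3.5, 0 and 3 counts in vehicle libraries. When every gene with a count was fitted, these were the 2 added hosts past the threshold, with log2 changes of 1.47 (edgeR adjusted p = 0.00393) and 1.63 (edgeR adjusted p = 0.027). On the scaled level both overlapped between groups, MIR4435-2HG through vehicle library 1, where 3.5 counts gave 0.635 CPM. MIR99AHG, host of miR-99a, let-7c and miR-125b-2, had 10, 6 and 7 counts in cytokine and 1, 2 and 14 counts in vehicle libraries, so a single vehicle library held most of the vehicle counts.

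MIR4527HG had 5, 9 and 3 counts in cytokine and 0, 0 and 5 in vehicle libraries, and MIR4500HG had 10, 4 and 3 in cytokine and 4, 0 and 4 in vehicle libraries. MIR133A1HG, host of a muscle microRNA, had 6, 6 and 3 counts in cytokine and 2, 1 and 3 in vehicle libraries. MIR1-1HG, host of another muscle microRNA, had 0.5, 3.5 and 5.5 counts in cytokine and 4.5, 6.5 and 3.5 in vehicle libraries. In each of these 4 the groups overlapped on the scaled level. MIR4432HG had 5, 6 and 3 counts in cytokine and 6, 1 and 6 in vehicle libraries, and MIR9-1HG, host of a neural microRNA, had 3, 4 and 1 in cytokine and 3, 1 and 6.5 in vehicle libraries. MIR302CHG, host of microRNAs of pluripotent cells, had 1, 4 and 3 counts in cytokine and 0, 3 and 4.5 in vehicle libraries. The other 3, MIR3667HG, MIR3681HG and MIR663AHG, had 0 to 5 counts in cytokine and 0 to 4 counts in vehicle libraries, also with overlap. The remaining 27 untested hosts had under 10 counts in all.

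**Figure D4:**
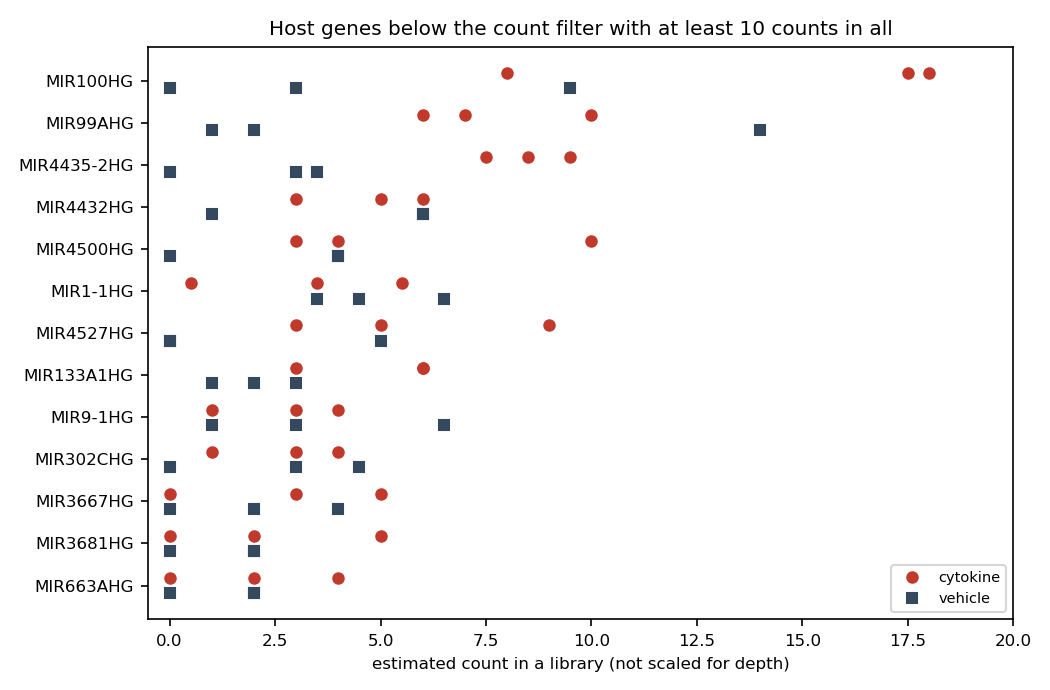
Estimated counts, not scaled for depth, of the 13 host genes below the count filter with at least 10 counts in all, 1 symbol per library (cytokine circles above vehicle squares; equal counts of a group fall on each other). No library exceeded 18 counts, and MIR100HG (18, 17.5 and 8 in cytokine, 3, 0 and 9.5 in vehicle libraries) reached the highest.

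The authors' deposited table gave 7 hosts higher and 6 lower at an FDR under 0.05. The share of all genes called in that table was not worked out, so these counts have no background here. Of these, 11 were also called in the refit with the same sign and 0 with the opposite sign. In the authors' deposited table MIRLET7BHG had an FDR of 0.111, and MIR100HG and MIR4435-2HG had FDRs of 0.0102 and 0.0144.

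The table also holds rows for precursor genes of the microRNAs that were matched inside the hosts, 88 in all. They lie inside by GENCODE 29 or, for the 3 of MIRLET7A1HG, by the RefSeq span alone. Of these, 36 were above 0, none exceeded 30.25 counts in a library, and 4 passed the count filter. Libraries of this kind count the host RNA around a hairpin, not the mature strand. MIR4453 had 29, 21 and 30.25 counts in cytokine and 4.5, 15.5 and 21 in vehicle libraries and was called higher like its host (log2 change 0.65, edgeR adjusted p = 0.0325). MIR4458 had 9.5, 7.5 and 6.5 counts in cytokine and 8, 11.5 and 16.5 in vehicle libraries and was called lower (log2 change −0.83, edgeR adjusted p = 0.0402), while its host did not pass. MIR22 had 25.5, 23 and 22.5 counts in cytokine and 12.5, 16 and 23.5 in vehicle libraries and did not pass (log2 change 0.16, edgeR adjusted p = 0.61), while its host rose. MIR7-3 had 19.5, 13.5 and 3 counts in cytokine and 8, 11.5 and 13.5 in vehicle libraries and did not pass. How reads were shared between precursor and host rows is not stated.

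The position of the hairpins differed among hosts. By their GENCODE 29 spans, 52 of the 61 hosts hold at least 1 microRNA, 86 in all, of which 26 lie in exons, 55 in introns and 5 across an exon boundary. In the 20 tested hosts with a hairpin inside, 18 lie in exons and 18 in introns. The called hosts include both kinds, such as the exonic MIR22HG and MIR4453HG and the intronic MIR762HG, MIR7-3HG, MIR325HG and MIR3936HG.

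Promoters of genes that respond to interferons or to interleukin 1 beta are known to hold GAS, ISRE or kappaB motifs. Promoter windows of 300 bases around the gene start, from RefSeq on GRCh38.p14, were matched for 46 of the 61 hosts. The RefSeq start can lie far inside the GENCODE 29 span, as it does for MIR3142HG, MIRLET7BHG and MIR100HG. For MIR3142HG the window begins at 160468001 and the GENCODE 29 gene at 160438594. A window may therefore not be the promoter of the transcript that was counted. They were searched on both strands for a GAS motif (TTC, any 3 bases, GAA), an ISRE core (GAAA, any 2 bases, GAAA) and a kappaB motif (GGGA, any 4 bases, CC). A GAS match was in 6 of the 46 windows and in 7.66% of 35116 promoters, an ISRE core match in 4 and in 3.57%, and a kappaB match in 12 and in 25.6%. Of the 6 hosts called higher, MIR7-3HG alone had a match, for GAS and kappaB. Of the 6 called lower, MIR924HG had an ISRE core match and MIR1915HG a kappaB match. MIR155HG and MIR3142HG are printed as the hosts known for their response to these signals, with the matches in capitals, kappaB in MIR3142HG and ISRE core and then GAS in MIR155HG.
MIR3142HG, chr5:160468001-160468300 (+): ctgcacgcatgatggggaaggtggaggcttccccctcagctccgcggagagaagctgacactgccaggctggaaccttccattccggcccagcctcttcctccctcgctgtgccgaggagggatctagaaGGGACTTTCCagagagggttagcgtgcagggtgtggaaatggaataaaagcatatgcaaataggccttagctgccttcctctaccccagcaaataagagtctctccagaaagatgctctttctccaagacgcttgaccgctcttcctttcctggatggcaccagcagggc
MIR155HG, chr21:25561895-25562194 (+): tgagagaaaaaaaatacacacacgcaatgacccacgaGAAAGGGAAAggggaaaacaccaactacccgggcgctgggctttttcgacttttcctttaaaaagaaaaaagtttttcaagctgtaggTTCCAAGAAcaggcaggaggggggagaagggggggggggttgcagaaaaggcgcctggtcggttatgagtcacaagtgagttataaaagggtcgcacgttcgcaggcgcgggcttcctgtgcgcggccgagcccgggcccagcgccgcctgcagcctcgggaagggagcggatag
The window of MIR155HG holds both interferon motifs by letters, and that of MIR762HG holds none of the 3 motifs. The counts of MIR155HG were 0 in every library, so no change of it could be read. Whether motifs go with the change of a host was not tested. A match is a description of letters and not a binding site.

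Genes that make microRNAs or otherwise act with them or on them, here called processing genes, were followed too. This list goes beyond the cutting and export steps and includes MOV10, ADAR and DIS3L2. It held 32 genes, of which 31 were tested. Of these, 16 were higher and 6 lower in cytokine libraries, beside 28.3% and 28.8% of all tested genes, and with library size alone 7 were higher and 15 lower. The median log2 change of the list was 0.09, against −0.02 for all tested genes. MOV10, a helicase of the Argonaute complex, averaged 326 CPM in cytokine and 88.2 CPM in vehicle libraries (log2 change 1.89, edgeR adjusted p = 2.37e-23). ADAR, which edits double-stranded RNA, averaged 779 CPM in cytokine and 288 CPM in vehicle libraries (log2 change 1.43). AGO2, the Argonaute that can cut its target, averaged 114 CPM in cytokine and 63.7 CPM in vehicle libraries (log2 change 0.83). MOV10 and ADAR are also known as interferon-induced genes.

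The nuclear cutting enzymes moved little and downward. DROSHA averaged 108 CPM in cytokine and 122 CPM in vehicle libraries (log2 change −0.17, edgeR adjusted p = 0.00457), and DGCR8 averaged 56.9 CPM in cytokine and 65.6 CPM in vehicle libraries (log2 change −0.20, edgeR adjusted p = 0.00277). DICER1 averaged 119.5 CPM in cytokine and 119.1 CPM in vehicle libraries and did not pass, nor did XPO5, at 80.8 CPM in cytokine and 84.9 CPM in vehicle libraries. The 2 largest falls of the list were those of DIS3L2, the nuclease that degrades uridylated let-7 precursors (log2 change −0.31), and RAN, the GTPase that XPO5 needs for export (log2 change −0.25).

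Host genes that carry other names were followed as well. Of 34 protein-coding genes with a microRNA in their span, 29 were tested, 10 were higher and 13 lower, beside 28.3% and 28.8% of all tested genes, with a median log2 change of −0.03. With library size alone 6 were higher and 18 lower. ARPP21, host of miR-128-2, averaged 6.09 CPM in cytokine and 1.27 CPM in vehicle libraries (log2 change 2.21, edgeR adjusted p = 1.42e-10), and LPP, host of miR-28, averaged 39.5 CPM in cytokine and 16.9 CPM in vehicle libraries (log2 change 1.18). PANK1, host of miR-107, fell to 13.6 CPM in cytokine against 25.3 CPM in vehicle libraries (log2 change −0.91, edgeR adjusted p = 1.13e-09), and EVL, host of miR-342, fell by 0.36 on the log2 scale. Of 8 non-coding hosts with other names, 6 were tested, 4 were higher and 1 was lower, beside the same shares of all tested genes (28.3% and 28.8%). MEG3, the maternally expressed RNA of the imprinted DLK1 region, averaged 1754 ± 7.15 CPM in cytokine and 1046 ± 86.2 CPM in vehicle libraries (SD, n = 3 each), a log2 change of 0.75 (edgeR adjusted p = 3.06e-14). MEG9, from the same region, had a log2 change of 0.67. MEG8 and DLEU2 were the other 2 that rose, H19, host of miR-675, was the one that fell (log2 change −1.40, 1.54 CPM in cytokine and 4.11 CPM in vehicle libraries), and FTX did not pass; these 4 were named after their values were seen.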

How the data were processed

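Extraction used the Nucleospin miRNA kit and library preparation NEBNext Ultra II Directional reagents, per the labels' protocols. GRCh38, STAR 2.7.5a, HTSeq 0.12.4, cutadapt 2.10, Picard 2.23.2, FastQC 0.11.9 and MultiQC 1.9 are listed in the submitters' processing notes with no role for any. Which annotation was counted, and whether with strand, is not given in the sources used here. What the authors deposited is an estimated count per gene and library, not normalised and in part fractional, per the file headers and the values: 67.3% to 73.5% of the values above 0 lay within 0.005 of a whole number, and nothing says where the fractions come from. Columns named NT were read as vehicle, because the cytokine name stands on the other 3 and replicate numbers match the titles. From the authors' deposited table, a log2 fold change and a p-value adjusted as FDR were used for the members only, per the file headers; the F score and group means that the authors also deposited were not used.

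Counts were rounded to whole numbers, filtered with filterByExpr (17863 genes left), scaled with TMM and tested with edgeR 4.0.16 in R 4.3.3 by its robust quasi-likelihood test with group as the single term and a Benjamini-Hochberg threshold of 0.05. Standard errors are the log2 change over the square root of F. Total counts of 5871481 to 16175364 set the precision, with a common biological coefficient of variation of 3.46%. Replicates differed by more than sampling noise, so each counted once.

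The members were taken by symbol alone, but the symbol rule, gene lists and tests were chosen with earlier results of these data known. Values per library are given for members past the test by at least 1.5-fold, for MIR155HG, MIR22HG, MIR17HG and MIR7-3HG, and for untested members with at least 10 counts; MIRLET7BHG and MIR3142HG were added after their values were seen. Of each other list, the 2 largest rises and the 2 largest falls were named among genes that reach 5 CPM in either group, and DROSHA, DGCR8, DICER1, XPO5 and AGO2. Positions come from GENCODE 29, which held all 61 members (51 under the same name). The fit was tested on simulated data.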

Additional observations from a re-analysis of the deposited data

How the results depend on the processing

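The alternatives were DESeq2 size factors in edgeR, library size alone, DESeq2 1.42.0 with its own filter, no filter beyond a total above 0, a floor of 1 CPM in 3 libraries, a replicate block, an adjusted p of 0.01, glmTreat against a fold of 1.5, and each library left out in turn. Of 12 called hosts, 3 kept their call in all 14 and 9 lost it in at least 1. Hosts called higher numbered 6 with the replicate block, 3 with DESeq2, 1 with glmTreat and 5 to 7 without single libraries; hosts called lower numbered 6 with the block, 4 with DESeq2, 2 with glmTreat and 6 with any library left out. With no filter 53 hosts were tested. Of all genes, library size alone called 2980 higher and 8791 lower, glmTreat 1395 and 949, and DESeq2 4288 and 3365. The replicate block called 5001 of all genes higher and 5097 lower. Without single libraries, 4577 to 5086 of all genes were called higher and 4355 to 4858 lower. Of the processing genes, library size alone called 7 higher and 15 lower and glmTreat 3 and 0; of the protein-coding hosts, library size alone called 6 higher and 18 lower and glmTreat 3 and 2; of the other non-coding hosts, glmTreat called 1 higher and library size alone 2 lower. With library size alone the sign turned for MIR17HG (−0.18), MIR34AHG (−0.0436), MIR4458HG (−0.20) and MIR7-3HG (−0.0629). With the replicate block it turned for MIR193BHG (0.00198) and MIR4458HG (−0.00559), and the block changed no call of a host. Same-numbered libraries did not deviate together (correlations of 0.0115, −0.0471 and −0.0499). For pairs with different numbers the correlations ran from −0.012 to 0.0583. With so few libraries, these values cannot show whether same-numbered libraries share a batch. With single libraries left out the log2 change spanned 0 for MIR17HG (−0.23 to 0.50), MIR193BHG (−0.33 to 0.27), MIR3677HG (−0.27 to 0.19) and MIR4458HG (−0.0583 to 0.0946). The cause of these changes was not tested. Depth limits the 40 untested hosts, and vehicle library 1 has the fewest counts.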

Other observations

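The count table holds another 24 genes that carry a host-gene symbol only in a separate table of gene names, and they were looked for after the values were seen. Of these, 21 were above 0 and 9 were tested, 5 higher and 2 lower in cytokine libraries, beside 28.3% and 28.8% of all tested genes. MIR493HG, on chr14:100836269-100947194 (+, GRCh38) with a span that overlaps those of MEG3 and MEG8 on the same strand, so that reads may be shared, averaged 76.3 CPM in cytokine and 50.6 CPM in vehicle libraries, a log2 change of 0.60 (edgeR adjusted p = 5.91e-10). MIR381HG, from the same imprinted region, had 0, 1 and 0 counts in cytokine and 1, 1 and 0 counts in vehicle libraries. MIR29B2CHG, host of miR-29b-2 and miR-29c, averaged 19.4 CPM in cytokine and 11.2 CPM in vehicle libraries (log2 change 0.82, edgeR adjusted p = 6.27e-09). MIR23AHG, host of the miR-23a cluster, had 3.46, 3.38 and 4.06 CPM in cytokine and 2.699, 1.01 and 1.52 CPM in vehicle libraries, without overlap (log2 change 1.20, edgeR adjusted p = 5.92e-05). MIR503HG and MIR194-2HG were the other 2 called higher, with log2 changes of 0.90 and 0.78. MIR217HG, host of microRNAs known from the pancreas, averaged 4.10 CPM in cytokine and 5.58 CPM in vehicle libraries and was called lower (log2 change −0.47, edgeR adjusted p = 0.016), as was MIR4733HG (−0.85), whose groups overlapped. MIR142HG, host of a microRNA of blood cells, was at 0 in all 6 libraries.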
